A study of Homo sapiens with 2 samples.

Results

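The regions described here are accessible sites that RPMI-8402 and Jurkat have in common but that were called at least 2 times as wide in one line as in the other. Both are established human cell lines that grew out of T-ALL, the acute lymphoblastic leukaemia of developing T cells. They were grown in RPMI-1640 medium with 10% tetracycline-free serum and antibiotics, untreated as far as the labels say. Each was profiled once by ATAC-seq, in which the transposase Tn5 cuts open chromatin and adds sequencing adapters, and paired-end 150-bp reads were sequenced. The authors' peak list of each library gives a position on hg19, a summit (the highest base) and a fold enrichment over the local background. A pair was 1 RPMI-8402 peak and 1 Jurkat peak on an autosome that overlapped each other by 1 bp or more and no other peak. Of 15948 such pairs, drawn from 23629 RPMI-8402 and 24437 Jurkat autosomal peaks, 14945 had summits less than 300 bp apart. The widths of 700 of these pairs (4.68%) differed 2-fold or more. The RPMI-8402 peak was the wider one in 568 (3.8%), called RPMI-8402-wide here, and the Jurkat peak in 132 (0.883%), called Jurkat-wide. The widths themselves chose these pairs, and there was 1 library per line, so no difference was tested and no value carries a replicate error. All intervals cover counting error only.

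Accessible chromatin is where transcription factors reach DNA. Promoters of active genes are often open over several nucleosomes around the start of transcription, whereas a distal element may be open over little more than one nucleosome-free stretch. A peak caller draws a peak as far as the fragment pileup passes a significance cutoff over the local background. The width of a call therefore follows both the spread of the signal and its height. The height was described by the fold enrichment and by the summit pileup, the number of fragments over the summit, which was solved from the deposited fold and p-value.

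The sequences shown next are promoters of genes at which a width difference is described further on. RUNX3 has a distal and a proximal promoter, and its peaks were wider in RPMI-8402 at the distal one and wider in Jurkat at the proximal one. RPS3 and RPLP2 encode ribosomal proteins and were Jurkat-wide, while ABCA1 and KIT were RPMI-8402-wide. Each run is RefSeq's promoter of 300 bases, from 250 before to 50 after the start of transcription, written 5′ to 3′. Capitals mark ACCACA, a core word bound by RUNX proteins, in the RUNX3 promoters, and CTTCCG, a core word bound by ETS proteins, in the others. CTTCCG is not marked in the RUNX3 promoters, nor ACCACA in the others.
RUNX3 distal promoter, GRCh38.p14 chr1:24964961-24965260, minus strand: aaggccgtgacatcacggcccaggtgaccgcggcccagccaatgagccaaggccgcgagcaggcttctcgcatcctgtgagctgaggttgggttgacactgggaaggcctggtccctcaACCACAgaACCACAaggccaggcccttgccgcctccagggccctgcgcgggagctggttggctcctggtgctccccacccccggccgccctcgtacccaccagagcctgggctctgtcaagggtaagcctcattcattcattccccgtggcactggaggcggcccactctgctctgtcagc
RUNX3 proximal promoter, GRCh38.p14 chr1:24930227-24930526, minus strand: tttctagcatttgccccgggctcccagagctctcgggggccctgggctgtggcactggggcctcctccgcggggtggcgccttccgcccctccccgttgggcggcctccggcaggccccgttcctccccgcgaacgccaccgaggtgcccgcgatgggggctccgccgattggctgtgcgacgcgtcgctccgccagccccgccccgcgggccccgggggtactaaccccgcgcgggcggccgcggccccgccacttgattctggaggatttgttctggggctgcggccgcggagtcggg
RPS3 promoter, GRCh38.p14 chr11:75399268-75399567, plus strand: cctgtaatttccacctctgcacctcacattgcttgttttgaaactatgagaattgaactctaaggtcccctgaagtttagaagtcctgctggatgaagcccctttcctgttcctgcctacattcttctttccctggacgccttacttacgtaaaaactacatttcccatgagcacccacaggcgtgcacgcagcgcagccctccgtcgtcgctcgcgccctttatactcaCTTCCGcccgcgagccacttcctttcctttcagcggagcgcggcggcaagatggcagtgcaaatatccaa
RPLP2 promoter, GRCh38.p14 chr11:809717-810016, plus strand: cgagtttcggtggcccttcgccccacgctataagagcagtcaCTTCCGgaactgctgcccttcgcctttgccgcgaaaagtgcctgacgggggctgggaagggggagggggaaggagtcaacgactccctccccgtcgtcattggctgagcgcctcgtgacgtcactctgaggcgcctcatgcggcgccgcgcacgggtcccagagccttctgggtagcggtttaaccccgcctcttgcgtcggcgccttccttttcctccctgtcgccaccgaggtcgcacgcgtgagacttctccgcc
ABCA1 promoter, GRCh38.p14 chr9:104928106-104928405, minus strand: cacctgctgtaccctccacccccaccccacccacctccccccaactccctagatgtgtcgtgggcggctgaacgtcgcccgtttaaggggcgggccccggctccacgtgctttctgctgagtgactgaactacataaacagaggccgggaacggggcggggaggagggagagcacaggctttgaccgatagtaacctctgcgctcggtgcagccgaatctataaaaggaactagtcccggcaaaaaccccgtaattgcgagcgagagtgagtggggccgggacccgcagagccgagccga
KIT promoter, GRCh38.p14 chr4:54657707-54658006, plus strand: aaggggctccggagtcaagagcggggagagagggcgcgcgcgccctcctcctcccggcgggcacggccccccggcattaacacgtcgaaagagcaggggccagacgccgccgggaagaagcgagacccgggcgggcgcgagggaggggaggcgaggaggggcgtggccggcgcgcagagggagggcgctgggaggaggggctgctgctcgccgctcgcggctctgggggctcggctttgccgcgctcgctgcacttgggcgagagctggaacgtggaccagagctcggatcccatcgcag

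ACCACA or its reverse complement occurred 2 times in the distal RUNX3 promoter and 0 times in the proximal one, and it was held by 13.1% of 35116 RefSeq promoters of this length. The proximal promoter held 38 CpG dinucleotides and the distal one 15, where the median over all promoters was 14. CTTCCG or its reverse complement occurred 1 time each in the RPS3 and RPLP2 promoters and 0 times in those of ABCA1 and KIT, against 19.5% of all promoters with at least 1. Both words were chosen after the RUNX3, RPS3, RPLP2 and TCF7 promoters had been read, so these counts describe the letters shown and nothing more. The sequences are on GRCh38.p14, while the peaks are on hg19, and the sequence of the peaks themselves was not read here.

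In RPMI-8402-wide pairs the RPMI-8402 peak had a median width of 884 bp (range 527 to 2473 bp), against 353 bp (261 to 948 bp) for its Jurkat partner. The median ratio of widths, RPMI-8402 over Jurkat, was 2.34, and the highest was 8.24. In Jurkat-wide pairs the RPMI-8402 peak had a median width of 373.5 bp (309 to 776 bp), against 892 bp (635 to 1585 bp) in Jurkat, a median ratio of 0.446 with 0.241 as the lowest. Over all 14945 pairs the median widths were 786 bp in RPMI-8402 and 754 bp in Jurkat. The wider peaks of both directions were thus somewhat wider than the median shared peak, and the narrower ones less than 0.5 times as wide as it. The narrower peak lay within 100 bp of the smallest width in its list in 300 of the 568 RPMI-8402-wide pairs (52.8%) and in 89 of the 132 Jurkat-wide pairs (67.4%), compared with 13.2% of all pairs. That smallest width was 309 bp in the RPMI-8402 list and 261 bp in the Jurkat list, so a RPMI-8402-wide pair could begin at a lower width than a Jurkat-wide pair. With the median ratio of all pairs taken as equal width the numbers were 488 and 162, and with each list's smallest width subtracted they were 1653 and 1686.

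**Figure D1:**
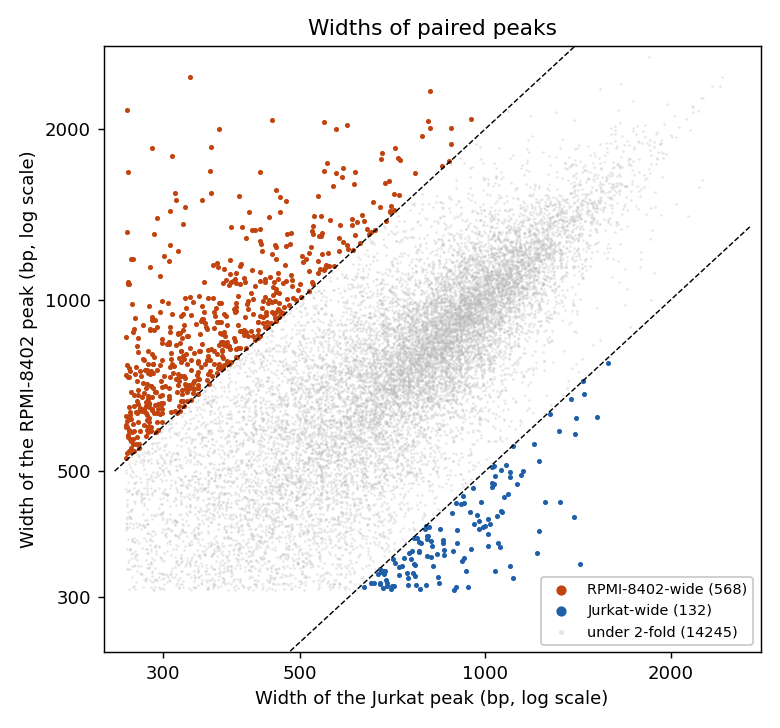
Widths of the RPMI-8402 peak (vertical, bp, log scale) and the Jurkat peak (horizontal, bp, log scale) of each of the 14945 pairs, with dashed lines at a 2-fold difference. The 568 RPMI-8402-wide pairs lie above the upper line, mostly at Jurkat widths under 500 bp, and the 132 Jurkat-wide pairs lie below the lower line.

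The narrower peak lay wholly inside the wider one in 460 of the 568 RPMI-8402-wide pairs (81.0%) and 122 of the 132 Jurkat-wide pairs (92.4%), compared with 53.2% of all pairs. A 2-fold width difference with summits less than 300 bp apart favours this by itself, so nothing is read from these shares. The wider peak passed the narrower one by a median of 233 bp at the lower and 246.5 bp at the higher coordinate in RPMI-8402-wide pairs, and by 235.5 and 244.5 bp in Jurkat-wide pairs. Pairs in which the narrower peak lay inside the wider and one side carried at least 80% of the extra width numbered 181 of the 568 RPMI-8402-wide pairs (31.9%) and 43 of the 132 Jurkat-wide pairs (32.6%), against 24.7% of all pairs. Pairs in which it lay inside and each side carried 40 to 60% numbered 114 of the 568 (20.1%) and 35 of the 132 (26.5%), against 9.57% of all pairs. Pairs with the narrower peak partly outside enter neither count but stay in the totals. They were less frequent in both classes than in all pairs, so these percentages are not read against those of all pairs. With pairs partly outside included, the larger side carried a median of 80.6% of the extra width in RPMI-8402-wide pairs and 73.1% in Jurkat-wide pairs. Over all pairs of unequal width the median was 100%, so both classes were less one-sided. The choice by width favours that by itself. Summits lay a median of 77.5 bp apart in RPMI-8402-wide pairs and 84.5 bp in Jurkat-wide pairs, against 61 bp in all pairs. A second peak of the narrower library within 1 kb was rare, at 13 RPMI-8402-wide pairs (2.29%) and 3 Jurkat-wide pairs (2.27%), a share near the 2.36% of all pairs.

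The 8 largest ratios of each direction included extension to one side and to both. Genes at these pairs were named after the values had been seen, from hg19 positions that were not read from a file. The largest RPMI-8402-wide ratio was at chr9:109624550-109626708, where a RPMI-8402 peak of 2159 bp and a Jurkat peak of 262 bp began within 5 bp of each other and the RPMI-8402 peak ran 1902 bp further. The RPMI-8402 peak, and not the Jurkat peak, covered the start of ZNF462, a zinc finger gene. The widest RPMI-8402 peak of any pair in its class, 2473 bp against 331 bp in Jurkat, lay at chr9:73033595-73036067 with 1846 bp of its excess on one side. At ZBTB7A, a gene of a transcriptional repressor also known as LRF, the peak was 1852 bp wide in RPMI-8402, where it covered the start, and 287 bp in Jurkat, where it did not. The widths differed 6.45-fold there at pileups of 87 fragments in RPMI-8402 and 85 in Jurkat, while the fold was 5.20 in RPMI-8402 and 9.90 in Jurkat. CRIM1 (1683 bp in RPMI-8402, 263 bp in Jurkat), ABCA1 (1790 and 310 bp) and GAB1 (1859 and 358 bp) followed. Both peaks covered the start at CRIM1 and GAB1. At ABCA1 the RPMI-8402 peak covered the start as placed here, and the Jurkat peak did not. Whether the Jurkat peak covers the start of the ABCA1 promoter printed above was not checked on hg19, so this difference is not relied on. ABCA1 is a cholesterol exporter and GAB1 an adaptor of growth factor receptors. The fold enrichment at ABCA1 was 5.82 in RPMI-8402 and 5.02 in Jurkat, and at GAB1 it was 6.84 and 4.29. The remaining pairs were at chr8:89339191-89341192 (2002 bp in RPMI-8402, 369 bp in Jurkat) and chr9:66833112-66834429 (1318 and 262 bp). At this chromosome 9 position the pileups were 625 fragments in RPMI-8402 and 592 in Jurkat with summits 2 bp apart, and it lies beside the centromere, where copies of a sequence are hard to place. No list of artefact-prone regions was applied.

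A ratio of 3-fold or more was seen in 77 RPMI-8402-wide pairs (13.6%) and 8 Jurkat-wide pairs (6.06%). The largest Jurkat-wide ratio was 4.15-fold, at chr10:111457097-111457439, where the peak spanned 343 bp in RPMI-8402 and 1424 bp in Jurkat. Its pileup was 15 fragments in RPMI-8402 (95% Poisson interval 8.4 to 24.7) and 95 in Jurkat (76.9 to 116), so width and height differed together. At the start of RPS2, a ribosomal protein gene, the widths were 324 bp in RPMI-8402 and 1110 bp in Jurkat, with 26 and 63 fragments. At the start of ZNF839 they were 334 and 1038 bp, with 30 fragments in RPMI-8402 and 37 in Jurkat. A second pair 2.21 kb before the ZNF839 span went the other way, with 820 bp in RPMI-8402 and 385 bp in Jurkat. The other 5 lay on chromosomes 16, 6, 9, 2 and 5, with widths of 340 to 441 bp in RPMI-8402 and 1095 to 1395 bp in Jurkat. The widest Jurkat peak of the class, 1585 bp against 776 bp in RPMI-8402, covered the start of RNF213, an E3 ubiquitin ligase gene linked to moyamoya disease.

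**Figure D2:**
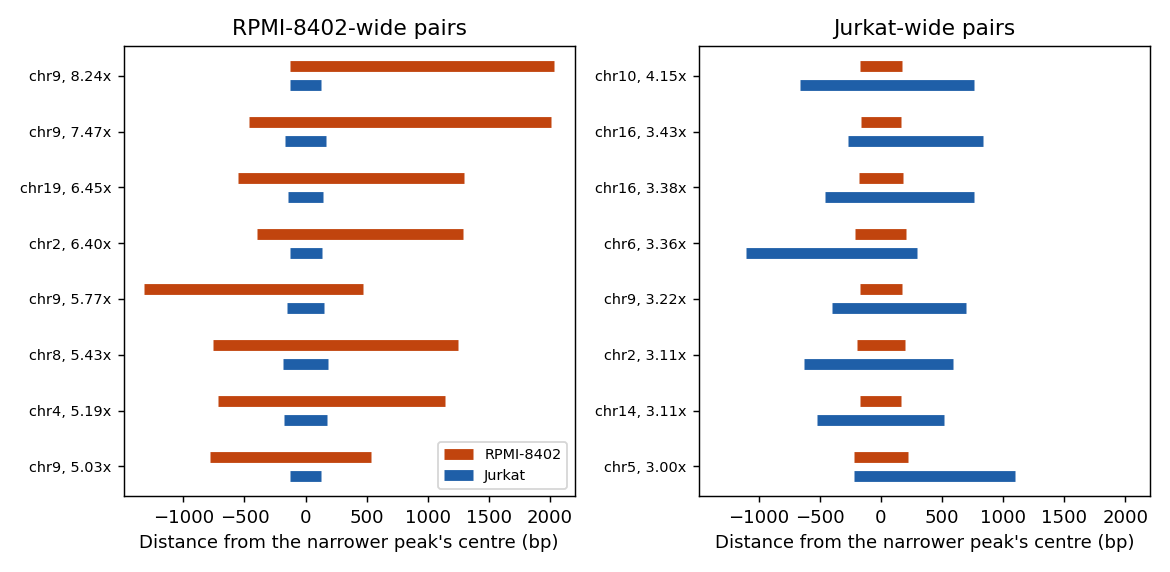
Extent of the RPMI-8402 peak (upper bar) and the Jurkat peak (lower bar) in the 8 pairs of each direction with the largest width ratio, as distance in bp from the centre of the narrower peak. Labels give the chromosome and the ratio of the wider to the narrower width, which runs from 8.24 to 5.03 on the left and from 4.15 to 3 on the right.

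At the threshold itself, the 3 pairs just inside it on the RPMI-8402 side had a ratio of 2, and the 3 just outside had 1.995, 1.995 and 1.994. Inside lay the start of ENO2, the neuronal enolase gene, with 1378 bp in RPMI-8402 and 689 bp in Jurkat. On the Jurkat side the 3 just inside had RPMI-8402-over-Jurkat ratios of 0.5, 0.499 and 0.499, and the 3 just outside had 0.501, 0.502 and 0.503. Pairs on both sides of the limit were thus alike in their ratio.

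The authors' fold enrichment was in most pairs of both directions higher in the line with the wider peak. RPMI-8402-wide pairs had a median fold of 6.97 in RPMI-8402 and 6.09 in Jurkat, whereas Jurkat-wide pairs had 5.01 in RPMI-8402 and 7.44 in Jurkat. Over all pairs the median was 8.49 in RPMI-8402 and 9.84 in Jurkat, so the folds of all pairs sat lower in RPMI-8402 by a median log2 ratio of -0.24. The median log2 ratio, RPMI-8402 over Jurkat, was 0.10 in RPMI-8402-wide pairs and -0.47 in Jurkat-wide pairs. Relative to the median of all pairs these values were 0.35 and -0.23. Among pairs with −log10 q of at least 10 in both peaks the first of these medians turned to -0.10, with 277 RPMI-8402-wide pairs left. The fold was higher in RPMI-8402 in 332 of the 568 RPMI-8402-wide pairs (58.5%), where 24.1% of all pairs had it higher there. It was higher in Jurkat in 124 of the 132 Jurkat-wide pairs (93.9%), where 75.9% of all pairs did. A fold at least 2 times as high in RPMI-8402 occurred in 27 RPMI-8402-wide pairs (4.75%, against 0.435% of all pairs) and in 0 of 132 Jurkat-wide pairs, which allows a share of up to 2.27%. A fold at least 2 times as high in Jurkat occurred in 2 RPMI-8402-wide pairs (0.352%) and 22 Jurkat-wide pairs (16.7%, against 1.24% of all pairs). These shares describe the same libraries that chose the pairs.

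The summit pileup differed by more than the fold. In RPMI-8402-wide pairs its median was 41 fragments in RPMI-8402 and 21 in Jurkat, and in Jurkat-wide pairs it was 19 in RPMI-8402 and 38.5 in Jurkat. All pairs had medians of 54 and 61, a median log2 ratio of -0.19. Relative to that, the median log2 ratio of pileups was 0.96 in RPMI-8402-wide pairs and -0.82 in Jurkat-wide pairs. The pileup was at least 2 times as high in RPMI-8402 in 229 RPMI-8402-wide pairs (40.3%, against 6.3% of all pairs), and at least 2 times as high in Jurkat in 69 Jurkat-wide pairs (52.3%, against 8.85%). Widths also differed at near-equal height. The pileup ratio, taken relative to the median of all pairs, stayed under 1.5-fold either way in 176 RPMI-8402-wide pairs (31.0%) and 53 Jurkat-wide pairs (40.2%), against 64.5% of all pairs. Ranked against peaks of like pileup in its own library, the wider peak stood at a median width percentile of 83.1 in RPMI-8402-wide pairs and 87.1 in Jurkat-wide pairs. The narrower peak stood at 21.8 and 16.4. The choice of pairs by width sets these percentiles apart by itself, and nothing is read from them.

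**Figure D3:**
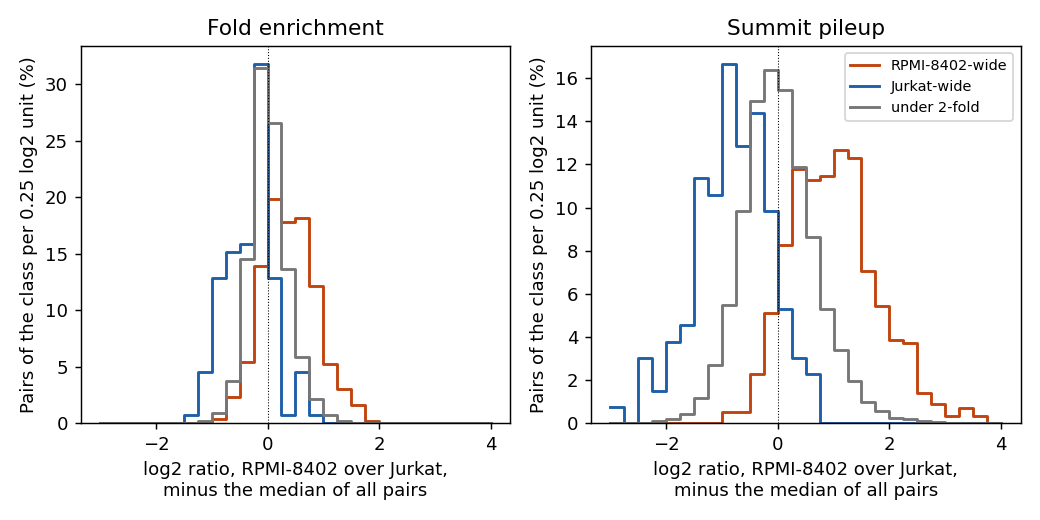
Distribution of the log2 ratio, RPMI-8402 over Jurkat, of fold enrichment (left) and summit pileup (right), each minus the median of all pairs, as a percentage of the pairs of each class per 0.25 log2 unit. The RPMI-8402-wide and Jurkat-wide curves are shifted to opposite sides of 0, with overlap, at medians of 0.35 and -0.23 for fold and 0.96 and -0.82 for pileup.

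RPMI-8402-wide pairs made up less of each stronger class of pairs, and Jurkat-wide pairs were found mainly in the weaker classes. With all pairs split into 5 equal classes by the mean pileup of both peaks, the share of RPMI-8402-wide pairs was 8.84%, 6.19%, 2.48%, 1.24% and 0.234%, weakest class first. The share of Jurkat-wide pairs was 2.30%, 1.51%, 0.470%, 0% and 0.134%, and 0 of 2991 pairs in the fourth class allows a share of up to 0.1%. In the strongest class, with a mean pileup of at least 110, 7 RPMI-8402-wide and 4 Jurkat-wide pairs were left. The strongest by fold enrichment in RPMI-8402-wide pairs was the centromere-side pair on chromosome 9, with a fold of 23.2 in RPMI-8402 and 25.5 in Jurkat. At chr4:161808641-161809250 the folds were 16.2 and 6.18, and at chr11:65600955-65601599 they were 14.7 and 5.02, on 102 fragments in RPMI-8402 (95% Poisson interval 83.2 to 124) and 12 in Jurkat (6.2 to 21). The other 5 of the 8 strongest had folds of 14.3 to 16.5 in RPMI-8402 and 10.9 to 21 in Jurkat. They lay at chr15:21995125-21996111, chr19:28330965-28331595, chr9:46112875-46113711, chr12:133532399-133533169 and chr14:44272172-44273113. No list of artefact-prone regions was applied, so it was not checked which of these strongest pairs lie in repeated sequence. In Jurkat-wide pairs the strongest was at chr7:149090-149643, near the chromosome end, with folds of 14.6 in RPMI-8402 and 18 in Jurkat and widths of 554 and 1111 bp. The next 7 had folds of 5.41 to 8.76 in RPMI-8402 and 12.2 to 16.2 in Jurkat, and they included the start of RPS3. The highest pileups of Jurkat-wide pairs, 514 fragments in RPMI-8402 and 1086 in Jurkat, were at chr2:133012447-133012914. The class medians were 19 and 38.5, and repeated sequence was not checked there either.

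The pairs were spread over all autosomes. RPMI-8402-wide pairs made up 38 of 643 pairs on chromosome 8 (5.91%, 95% exact binomial interval 4.22 to 8.02%), 41 of 742 on chromosome 4 (5.53%, 3.99 to 7.42%) and 8 of 138 on chromosome 21 (5.80%, 2.54 to 11.1%). The lowest shares were 4 of 285 on chromosome 22 (1.4%, 0.384 to 3.55%), 4 of 241 on chromosome 18 (1.66%) and 13 of 555 on chromosome 16 (2.34%). For 19 of the 22 autosomes the interval held the overall 3.8%, and it lay above it on chromosomes 4 and 8 and below it on chromosome 22. The share of Jurkat-wide pairs was lowest on chromosome 3, with 2 of 1003 (0.199%, 0.0242 to 0.718%), and highest on chromosome 13, with 5 of 291 (1.72%, 0.560 to 3.96%). For 21 autosomes the interval held the overall 0.883%. Among 22 intervals at 95%, some can miss the overall share by counting error alone. Neighbouring pairs share copy number, and the copy number of these lines was not measured here, and the intervals treat the pairs as independent.

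**Figure D4:**
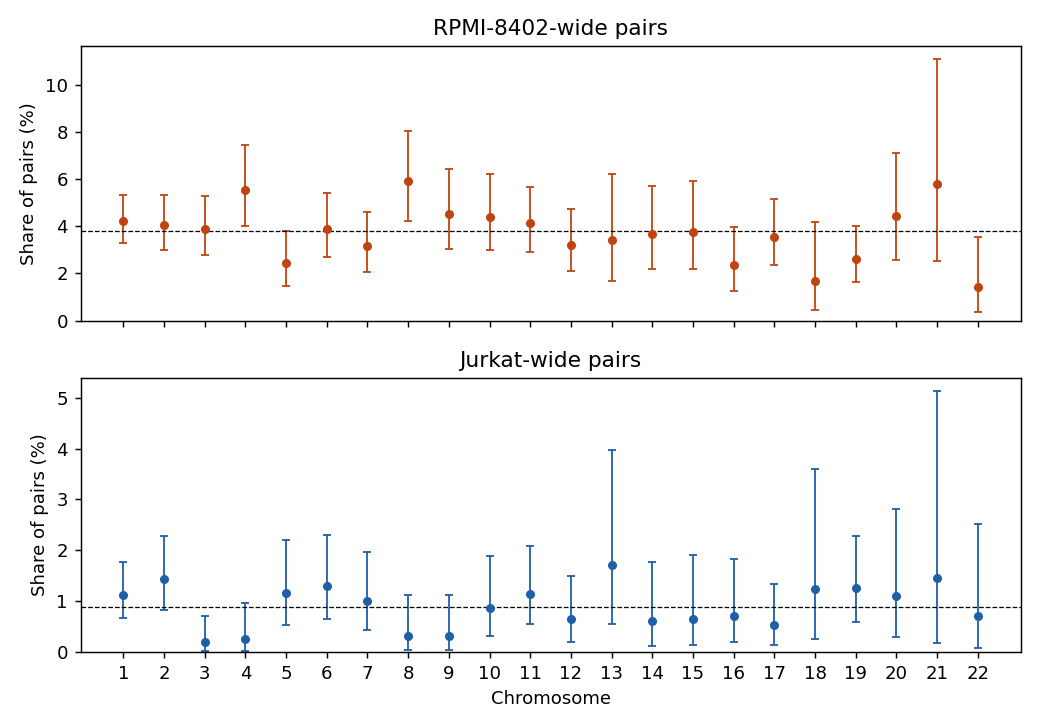
Share of pairs on each autosome that were RPMI-8402-wide (upper panel) or Jurkat-wide (lower panel), in percent, with exact 95% binomial intervals as bars and the overall share as a dashed line. On chromosomes 4 and 8 the upper-panel bar lies above the line and on chromosome 22 below it, and in the lower panel the bar of chromosome 3 lies below it.

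The 5-Mb bins named next were picked from all bins for holding the most pairs of each direction. RPMI-8402-wide pairs, 3.8% of all pairs, were most numerous on chromosome 6 between 25 and 30 Mb, with 8 of 84 pairs. At 20 to 25 Mb of chromosome 7 they made up 6 of 26 pairs, and at 40 to 45 Mb of chromosome 17 they made up 6 of 86. The top bins of Jurkat-wide pairs, 0.883% of all pairs, were 230 to 235 Mb of chromosome 1, with 4 of 40, and the first 5 Mb of chromosome 11, with 4 of 55. Another RPMI-8402-wide pair within 50 kb was present at 26 of the 568 RPMI-8402-wide pairs (4.58%) and a RPMI-8402-wide pair at 7 of the 132 Jurkat-wide pairs (5.30%), against 3.70% of all pairs. A Jurkat-wide pair was as near to 8 of the 568 RPMI-8402-wide pairs (1.41%) and to 2 of the 132 Jurkat-wide pairs (1.52%), against 1.02% of all pairs. The median pileup ratio of the surrounding 5 Mb, relative to all pairs on the log2 scale, was 0.046 around RPMI-8402-wide pairs and -0.11 around Jurkat-wide pairs, against -0.010 around all pairs.

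Genes known in T-ALL and T cells were placed by hg19 spans that were not read from a file. The 95 genes formed 4 lists, and 227 pairs lay in or within 50 kb of them. RPMI-8402-wide pairs numbered 14 of these (6.17%) and Jurkat-wide pairs 3 (1.32%), beside 3.8% and 0.883% of all pairs. Of the 14, 9 lay among the 87 pairs near the 29 transcription factors of T-cell development and leukaemia (10.3%). Of the 74 pairs near 30 T-cell surface, signalling and rearrangement genes, 3 were RPMI-8402-wide (4.05%), and of the 51 near 21 growth, survival and drug response genes, 2 were (3.92%). The 18 pairs near 15 genes of other lineages held 0, which allows up to 16.7%. All 3 Jurkat-wide pairs were near transcription factors (3.45%). These shares rest on few pairs, and they moved with the window, to 9.35% within 10 kb and 4.44% within 200 kb for RPMI-8402-wide pairs of all lists.

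Among the transcription factors, RUNX3 carried a pair of each direction. RUNX3 is a Runt-domain factor that represses CD4 in cells of the CD8 lineage. At its distal promoter, chr1:25291439-25292094, the peak was 656 bp wide in RPMI-8402 and 294 bp in Jurkat, with folds of 6.07 and 6.09 and pileups of 43 and 24 fragments. At its proximal promoter, which codes for a protein with another N-terminus, it was 682 bp wide in RPMI-8402 (chr1:25256386-25257067) and 1447 bp in Jurkat (chr1:25255760-25257206). The folds there were 6 in RPMI-8402 and 7.07 in Jurkat, and the pileups 36 and 49.

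Receptor and target of the Notch pathway, a main driver of T-ALL, both had RPMI-8402-wide pairs outside their spans. NOTCH1 encodes the receptor, and 41.3 kb upstream of it the peak was 1525 bp wide in RPMI-8402 and 398 bp in Jurkat, with pileups of 130 and 32 fragments. HES1 encodes a repressor that Notch switches on, and 2.28 kb past its end the widths were 1182 and 268 bp and the pileups 132 fragments in RPMI-8402 and 33 in Jurkat. The folds were much closer than the pileups, with 6.78 in RPMI-8402 against 6.42 in Jurkat at NOTCH1 and 5.64 against 4.73 at HES1. The local background solved for these peaks was thus higher in RPMI-8402 as well.

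TCF7 and LEF1, related HMG-box factors of early T cells, were both RPMI-8402-wide. At TCF7 the widths were 1296 bp in RPMI-8402 and 541 bp in Jurkat. The pileup was nevertheless lower in RPMI-8402 (72 against 90 fragments) and so was the fold (5.12 against 8.35). The RPMI-8402 peak covered the start of the TCF7 span as placed here, and the Jurkat peak did not. That start was placed on hg19 with less certainty, so this difference is not relied on. At 2.56 kb upstream of LEF1 the widths were 2009 bp in RPMI-8402 and 812 bp in Jurkat, with pileups of 112 and 87 but folds of 4.99 and 6.14. GATA3, a zinc finger factor of T-cell commitment, had 889 bp in RPMI-8402 and 353 bp in Jurkat inside its span, with 29 and 34 fragments and folds of 3.25 and 3.87. The wider peak was thus lower in fold at all 3 genes and lower in pileup at TCF7 and GATA3.

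The ETS genes went both ways. FLI1 and ERG, activators used in blood stem and progenitor cells, had RPMI-8402-wide pairs of 710 bp in RPMI-8402 against 330 bp in Jurkat and 1690 against 548 bp. The FLI1 pair lay 7.76 kb outside the span of FLI1, and the ERG pair overlapped that of ERG. ETV6, an ETS repressor, had a Jurkat-wide pair inside its span with 355 bp in RPMI-8402 and 803 bp in Jurkat and pileups of 13 and 54. ID2, an inhibitor of E proteins whose start on hg19 was placed with less certainty, had a pair of each direction. The pair nearest to it spanned 1257 bp in RPMI-8402 and 481 bp in Jurkat at near-equal pileups of 87 and 93, and a pair 14 kb upstream of the span spanned 334 bp in RPMI-8402 and 930 bp in Jurkat.

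The 5 pairs at the other listed genes were all RPMI-8402-wide. CD6 encodes a surface receptor of T cells, PRKCQ a kinase and THEMIS an adaptor of T-cell receptor signalling. Their widths were 1088 bp in RPMI-8402 and 461 bp in Jurkat at CD6, 783 and 357 bp at PRKCQ, and 945 and 420 bp at THEMIS. The CD6 pair lay 1.21 kb outside the span of CD6, and those of PRKCQ and THEMIS overlapped the spans. At CD6 the pileup was 31 fragments in RPMI-8402 and in Jurkat, and at THEMIS it was 34 in RPMI-8402 and 40 in Jurkat. FKBP5, a co-chaperone induced by glucocorticoids, had 1203 bp in RPMI-8402 and 450 bp in Jurkat, with pileups of 53 and 27. KIT, the receptor of stem cell factor, had 1027 bp in RPMI-8402 and 417 bp in Jurkat, with folds of 9.17 and 5.05 and pileups of 47 and 16. The RPMI-8402 peak covered the KIT start as placed here, and the Jurkat peak did not. That start was not read from a file, so this difference is not relied on. KIT had the highest fold in RPMI-8402 among the 14.

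Further genes outside the lists were likewise named after the values had been seen. RPMI-8402-wide pairs lay at the starts of APP, the amyloid precursor gene (1849 bp in RPMI-8402, 713 bp in Jurkat), of PTPRG, a receptor phosphatase gene (1327 and 663 bp), and of NFIA, a nuclear factor I gene (1307 and 526 bp). The homeobox gene DLX6 had 1498 bp in RPMI-8402 and 347 bp in Jurkat, and EBF3 had 1405 and 528 bp. Inside TET2, which encodes an enzyme that oxidises methylcytosine, the widths were 659 and 297 bp and the fold was 14.3 in RPMI-8402 against 6.96 in Jurkat. CNOT6L, a deadenylase gene of the CCR4-NOT complex, had 2332 bp in RPMI-8402 and 812 bp in Jurkat at pileups of 147 and 136. Among Jurkat-wide pairs, SLAMF1, a surface receptor of lymphocytes, had 456 bp in RPMI-8402 and 1089 bp in Jurkat inside its span. A pair 39.6 kb outside SLAMF1 was RPMI-8402-wide, with 812 bp in RPMI-8402 and 321 bp in Jurkat.

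Genes of ribosomal proteins were looked at as a group because 3 of them stood among the Jurkat-wide pairs. Their promoters are active in every growing cell. Of 72 starts, placed from hg19 positions that were not read from a file, 70 lay in or within 200 bp of a pair. Jurkat-wide pairs numbered 3 of the 70 (4.29%, beside 0.883% of all pairs), namely RPS2, RPS3 and RPLP2, and RPMI-8402-wide pairs 0, which allows up to 4.29%. RPS3 had 339 bp in RPMI-8402 and 723 bp in Jurkat, with pileups of 24 and 72 fragments. RPLP2 had 721 bp in RPMI-8402 and 1444 bp in Jurkat at pileups of 123 and 142, and its fold was higher in RPMI-8402 (8.91 against 7.38). Just short of the threshold stood RPL21, with 411 bp in RPMI-8402 and 817 bp in Jurkat, RPS27, with 316 and 624 bp, and RPL19, with 396 and 753 bp. Over the whole group the RPMI-8402 peak was narrower than the Jurkat peak at 53 of 70 starts (75.7%, against 43.3% of all pairs). The median log2 width ratio, RPMI-8402 over Jurkat, was -0.17 at these starts and 0.045 in all pairs. Pileup moved with it, with a median log2 ratio of -0.52 at these starts relative to all pairs, and so did fold, with -0.18. Their part in the width difference was not tested. Among 3233 pairs of like Jurkat pileup the median log2 width ratio was 0 and the share of Jurkat-wide pairs 0.371%. These pairs were matched on Jurkat pileup alone. Their median log2 pileup ratio relative to all pairs was -0.18, against -0.52 at the ribosomal starts, so height was not held equal. The word CTTCCG was held by 36 of the 58 ribosomal protein promoters found in RefSeq's table (62.1%), against 19.5% of all promoters. The group was picked from the members, so these values are a description.

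**Figure D5:**
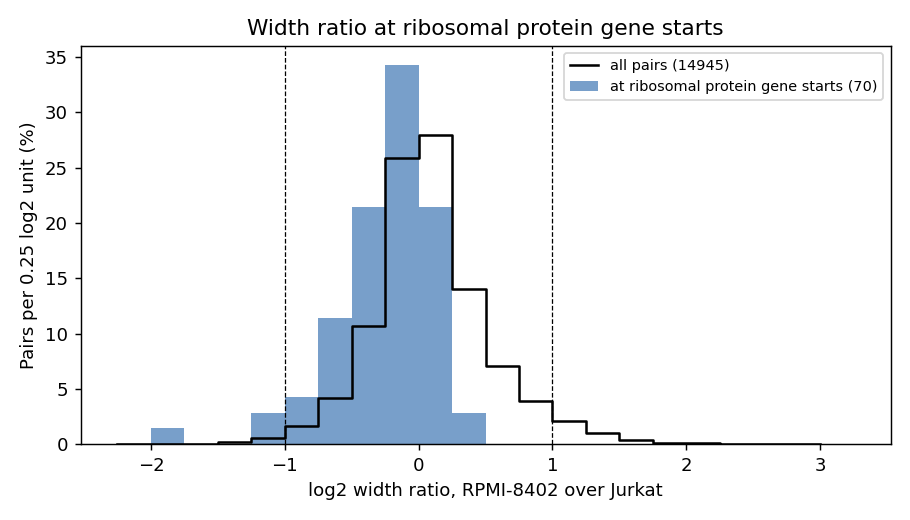
Distribution of the log2 width ratio, RPMI-8402 over Jurkat, at 70 ribosomal protein gene starts (bars) and over all 14945 pairs (line), in percent per 0.25 log2 unit, with dashed lines at a 2-fold difference. The bars lie to the left of the line's peak with a median of -0.17 against 0.045, and 3 starts pass the left dashed line.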

How the data were processed

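ATAC-seq libraries of RPMI-8402 and Jurkat, 1 each, were analysed from 1 peak list per library, called per library. Per the submitters' processing notes, the tools were Bowtie2, Picard, SAMtools and MACS2 2.1.1.2016030 and the build was hg19. Tool settings, read filters and any Tn5 offset were not given in the sources used here. For every peak, the authors deposited a position with its summit, a fold enrichment against local background, a score, and the p-value and q-value as −log10. The deposited score equals the −log10 p-value times 10 without decimals and was not used. Library totals are unknown.

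Peaks of chromosomes 1 to 22 were paired at an overlap of 1 bp or more, each with a single partner and summits under 300 bp apart, with scipy 1.17.1, pandas 2.3.3 and numpy 2.4.6 under Python 3.11.15. Bedtools 2.31.1 gave the same number of pairs. Width is end minus start, and coordinates are printed 1-based. The pileup x and background λ at each summit were solved from the fold, taken as (x + 1) over (λ + 1), and the Poisson p-value, as MACS2 is known to compute them. The pileup came out whole within 0.01 in 100% of peaks of both lists. Centred ratios are minus the median of all pairs. Intervals are exact 95% binomial (Clopper-Pearson) or Poisson intervals, and fragments may include PCR copies. A count of 0 is given with the share that 3 counts would make. Pairing and solving were tested on simulated data.

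The pairs, gene lists and regions were chosen with earlier results of these data known. Pairs are named by rule, namely the 8 largest width ratios, the 8 highest folds of the wider peak, the 3 widest peaks and the 3 nearest the threshold on either side, per direction, and listed genes within 50 kb. Other genes, the ribosomal protein genes and the motifs were chosen after the values or sequences were seen. No annotation of hg19 was used. Gene spans and starts on hg19 were written from general knowledge and compared with RefSeq (GRCh38.p14). For 95 of 95 listed genes the chromosome was the same, and for 80 the length was within 10%. The distance to at least 1 of the nearest such genes changed by at most 100 kb for 89 of 95 listed genes, 21 of 24 other genes and 62 of 69 ribosomal protein genes. GATA3, TCF7, ID2 and PRKCQ are among the genes whose length differed by more. Exons, introns and UTRs were not analysed here.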

Additional observations from a re-analysis of the deposited data

How the results depend on the processing

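The median log2 fold ratios kept their sign under every alternative run but 1. With −log10 q of at least 10 in both peaks, the median log2 fold ratio of RPMI-8402-wide pairs was -0.10 and that of Jurkat-wide pairs -0.39. The numbers of RPMI-8402-wide and Jurkat-wide pairs there were 277 and 41, with summits under 100 bp apart 354 and 74, with the smallest width of each list subtracted 1653 and 1686, the one setting with more Jurkat-wide pairs, at a width ratio of 1.5 or more 1761 and 725, and at 3 or more 77 and 8. The median log2 fold ratio of RPMI-8402-wide pairs was 0.027 at a width ratio of 1.5 or more, and that of Jurkat-wide pairs was -0.37 with the smallest widths subtracted. With the solved pileup in place of the fold the medians were 0.76 and -1.02, and centred on the median of all pairs they were 0.35 and -0.23, an alternative chosen after seeing the data. Pairs near listed genes numbered 22 and 5 within 200 kb, against 14 and 3 within 50 kb. Of 53 alternative values, 33 stayed within 1.5 times the number or within the median's 95% interval, 19 moved further and 1 reversed. Stricter limits keep fewer pairs by construction, and other causes were not tested. No paired analysis was possible because there was a single library of each line, and no replicate could be left out. At this depth 300 of the 568 narrower peaks of RPMI-8402-wide pairs and 89 of the 132 of Jurkat-wide pairs stand within 100 bp of the smallest width in their list.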
